A study of Mus musculus with 4 samples.

Results

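A set of 10 genes of calcium entry, calcineurin and NFAT signalling was followed in antigen-activated mouse mast cells that lacked the MAP kinase phosphatase Pac1, which is encoded by Dusp2, or carried it. The 10 genes were Orai1 and Stim1 (store-operated calcium entry), Plcg1 and Plcg2 (phospholipase C gamma), Ppp3ca, Ppp3cb and Ppp3r1 (calcineurin subunits), Rcan1 (a calcineurin inhibitor) and Nfatc1 and Nfatc3 (NFAT transcription factors). They were chosen by name and read from every probe set whose only gene symbol in the platform annotation was one of them, 19 of 22626 probe sets; the array names 12393 genes in this way. On average over the arrays 12 of the 19 reached the intensity minimum of 100 used for testing. These 12 belonged to 8 of the 10 genes, and Stim1 and Plcg1 were the 2 genes without one.

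A total of 2 Pac1-/- and 2 wild-type (Pac1+/+) cultures were measured, each on 1 Affymetrix mouse 430A array. All 4 had been grown from bone marrow of mice aged 8 to 12 weeks for 4 to 6 weeks in 5 ng/ml interleukin-3, coated with 100 ng/ml anti-DNP IgE for 18 h and then given the antigen DNP-HSA at 20 ng/ml for 2 h. Every culture had therefore been activated, no resting culture is part of the comparison, and which part of Dusp2 was deleted is not given in the labels. Cultures of the same genotype were described as independent, and with 2 arrays per genotype that small number limits how precise any value can be.

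Cross-linking of the high-affinity IgE receptor FceRI leads to tyrosine phosphorylation of phospholipase C gamma, which makes inositol trisphosphate and so empties the calcium stores of the endoplasmic reticulum. Stim1 in the store membrane senses this loss and opens the Orai1 channel of the plasma membrane. Calcium that enters binds calmodulin, which switches on calcineurin, a phosphatase built from a catalytic subunit (Ppp3ca or Ppp3cb) and a calcium-binding regulatory subunit (Ppp3r1). Calcineurin removes phosphates from NFAT factors, which then enter the nucleus and act on cytokine genes, while Rcan1 binds and restrains calcineurin. In mast cells this route is known to be needed for degranulation and for cytokine production after antigen.

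By sum of squares the arrays differed more by replicate number than by genotype. Across the tested probe sets, 71.9% of the sum of squares lay between replicate numbers, 17.9% between genotypes and 10.2% in the remainder. Dusp2 itself had normalised intensities of 109.3 and 75.5 in Pac1-/- cells, against 167.2 and 90.7 in wild-type cells (replicates 1 and 2). Its levels overlapped (limma adjusted p = 0.888), though the Pac1-/- array was lower within each replicate number (log2 difference -0.61 and -0.26). The Dusp2 mean reached 100 only through wild-type replicate 1. Whether its probes lie in the deleted part is not known here. Of 12 mast cell markers, 10 read at least 100 on every array, and the summed intensity of all 12 was 58034 and 45786 in Pac1-/- cells, against 54138 and 48468 in wild-type cells. Not every marker was as even as the sum. Ms4a2 read 41.9 and 1502.3 in Pac1-/- cells, against 142.6 and 3261.1 in wild-type cells. For Tpsb2 the readings were 6587.7 and 475.8 in Pac1-/- cells, against 5837.6 and 7259.2 in wild-type cells. Of 12 macrophage markers, 2 reached 100 on every array, Cd68 and Adgre1 (between 217.0 and 250.5). A further 8 stayed below 100 on all arrays, with Marco and C1qa under 16 throughout. Lyz2 read 121.9 and 135.9 in Pac1-/- cells, against 73.3 and 56.8 in wild-type cells, and Csf1r reached 100 only on wild-type replicate 2 (101.7). The macrophage sum was 6141 and 675 in Pac1-/- cells, against 8021 and 630 in wild-type cells, and most of it on the replicate 1 arrays was Cd68 (5638.2 in Pac1-/- and 7511.7 in wild-type cells). Without Cd68 the sum was 503 and 555 in Pac1-/- cells, against 509 and 512 in wild-type cells. Per the labels' protocols, over 98% of the cultured cells stained for both Kit and FceRI. None of 9 neutrophil, 5 basophil and eosinophil and 8 lymphocyte markers averaged 100, and 1 of 7 erythroid and megakaryocyte markers and 2 of 9 stromal markers did. In Pac1-/- cells the summed intensity lay between 214 and 506 for neutrophil, 136 and 195 for basophil and eosinophil, 147 and 193 for lymphocyte, 635 and 1885 for erythroid and megakaryocyte and 246 and 505 for stromal markers. In wild-type cells it lay between 254 and 307, 151 and 154, 136 and 167, 2149 and 3296, and 150 and 1335 for the same lists. Most of the erythroid and megakaryocyte sum was Itga2b (1721.4 and 424.4 in Pac1-/-, 2036.8 and 3169.6 in wild-type cells). Among stromal markers Sparc read 369.6 and 3.8 in Pac1-/- cells, against 684.5 and 3.7 in wild-type cells. Vcam1 read 33.4 and 14.1, against 468.5 and 8.5. The other markers of both lists were below 100 on every array. The ratio of 3' to 5' signal of the Gapdh control was 1.36 and 191 on the Pac1-/- arrays, against 0.798 and 0.839 on the wild-type arrays (replicates 1 and 2). That of the beta-actin control was 293 and 54.8 on the Pac1-/- arrays, against 109 and 1.58 on the wild-type arrays, so the 2 controls did not single out the same array. The median intensity as deposited was lowest on Pac1-/- replicate 2, at 24.5, against 40.6 on Pac1-/- replicate 1 and 49.3 and 48.0 on the wild-type arrays. The share of probe sets that reached 100 as deposited was 27.7% there, against 33.0%, 33.9% and 33.6% in the same order. The part of these differences in the results that follow was not tested.

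No difference between Pac1-/- and wild-type cells passed the test for any of the 8 tested genes, and the genes were not tested as a group. Of the 8 tested genes, each read by its brightest probe set, 6 had a higher mean in Pac1-/- cells (Nfatc3, Ppp3ca, Rcan1, Plcg2, Ppp3cb and Ppp3r1) and 2 a lower one (Orai1 and Nfatc1). Among all 7770 tested probe sets 52.8% were higher, and among the 4998 tested genes by their brightest probe set 56.0% were. The median log2 difference, Pac1-/- minus wild-type, was 0.32 over the 8 genes and 0.06 over all tested probe sets. In limma's test with Benjamini-Hochberg adjustment 0 of the 8 genes had an adjusted p under 0.05, against 0% of all tested probe sets (0 of 7770), and 0 had an unadjusted p under 0.05, against 3.38% of all (263 of 7770). Only Nfatc3 and Ppp3ca had groups that did not overlap, both higher in Pac1-/- cells, that is 2 of 8 higher and 0 of 8 lower, against 24.3% and 13.4% of all tested probe sets. The share of higher genes without overlap, 25%, was near that background. Nfatc3 reached the mean of 100 only through its Pac1-/- arrays, so its place among the 8 depended on them. The brightest Orai1 probe set reached it only through wild-type replicate 2. The other Orai1 probe set was tested too, so that array decided which probe set was read for Orai1. In RNA of whole cultures, fewer cells with a transcript and less of it per cell cannot be told apart. Without wild-type replicate 2 the median over the 8 genes was 0.07, and without Pac1-/- replicate 2 it was 0.13.

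**Figure D1:**
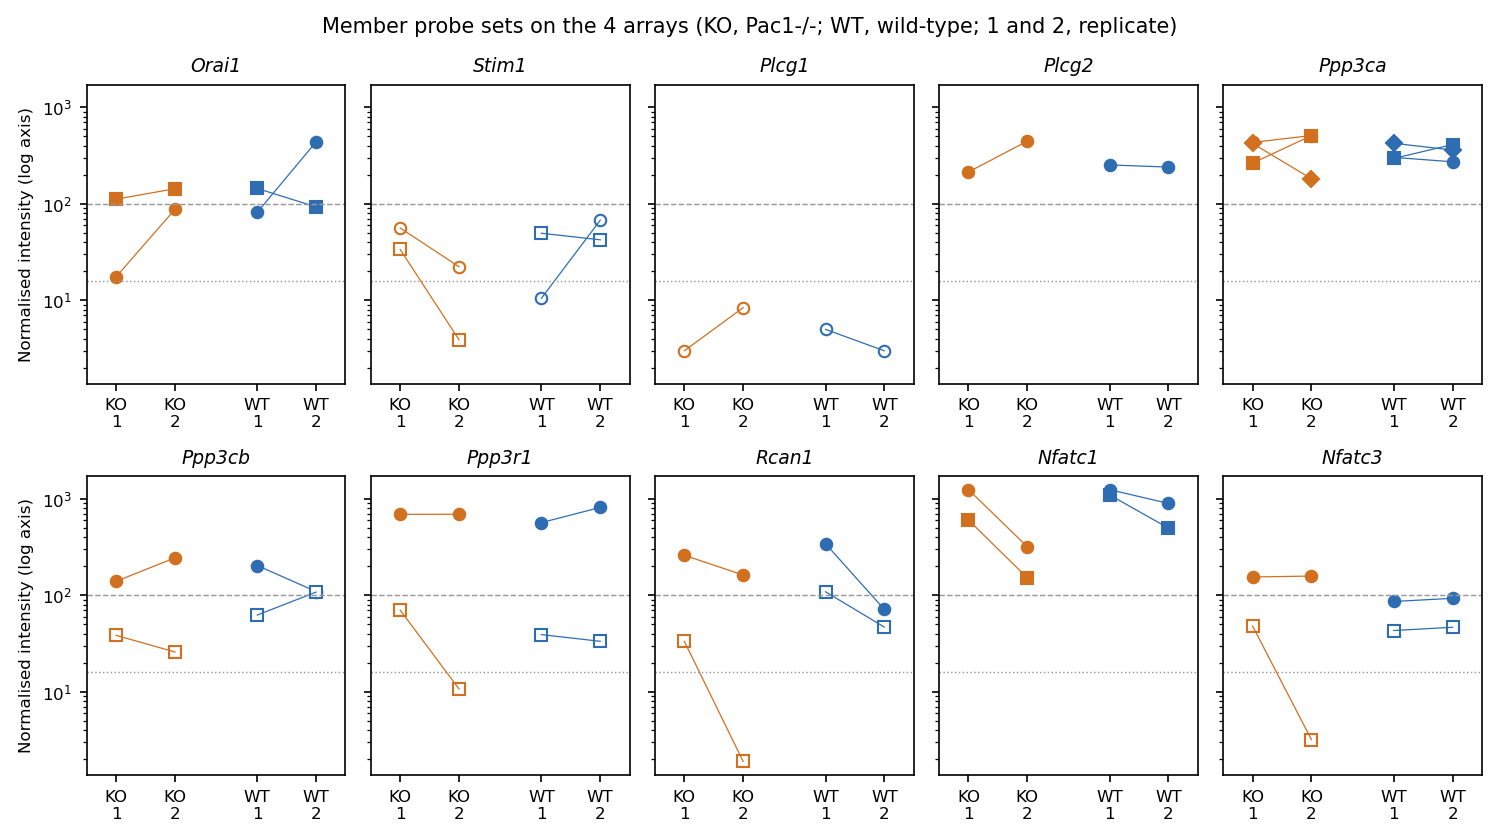
Normalised intensity (log axis) of each probe set of the 10 genes on the 2 Pac1-/- arrays (KO, orange) and the 2 wild-type arrays (WT, blue); each symbol shape within a panel is 1 probe set, lines join its 2 arrays of a genotype, filled symbols were tested, open ones averaged below 100, the dashed line marks 100 and the dotted line the floor of 16. Nfatc3 (filled circles) sits at 155.0 and 158.5 in Pac1-/- cells, above 86.4 and 93.2 in wild-type cells, while the brightest Orai1 probe set spreads from 17.5 to 438.8.

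At the plasma membrane, the 2 probe sets of the calcium channel gene Orai1 did not tell the same story. The brighter, 1424990_at, had normalised intensities of 17.5 and 87.6 in Pac1-/- cells, against 81.6 and 438.8 in wild-type cells. The Pac1-/- array was the lower one within each replicate number, but Pac1-/- replicate 2 lay just above wild-type replicate 1, so the groups overlapped. Its log2 difference was -2.27 ± 1.28 (SE over 2 arrays a genotype; 95% interval -5.94 to 1.40, limma adjusted p = 0.866), with -2.22 within replicate 1 and -2.33 within replicate 2. Of its 4 readings 3 were below 100, so it reached the mean of 100, and its place as the brighter probe set, only through wild-type replicate 2. The difference was -1.34 with a floor of 64 and -2.65 on the values as deposited. Leaving out 1 wild-type array gave -3.49 (replicate 1 left out) or -1.06 (replicate 2), and leaving out 1 Pac1-/- array gave -1.11 (replicate 1) or -3.43 (replicate 2). The other, 1424989_at, read 111.9 and 143.4 in Pac1-/- cells, against 144.4 and 93.0 in wild-type cells, a log2 difference of 0.13 ± 0.43 (adjusted p = 0.979). It showed no shared direction, with -0.37 within replicate 1 and 0.62 within replicate 2. With both probe sets averaged the Orai1 difference was -1.07.

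Stim1, the calcium sensor of the store, and Plcg1 were too dim to test. The brighter Stim1 probe set read 56.2 and 22.3 in Pac1-/- cells, against 10.5 and 67.6 in wild-type cells. The dimmer read 33.7 and 3.9 in Pac1-/- cells, against 49.6 and 42.4 in wild-type cells. None of these 8 readings reached 100, so the arrays give no usable Stim1 level in either genotype. The only Plcg1 probe set read between 3.0 and 8.4 on the 4 arrays, all under the floor of 16, and its genotype difference is therefore 0 by construction.

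Plcg2, the phospholipase C gamma gene that was measurable here, read 213.9 and 446.4 in Pac1-/- cells, against 253.3 and 240.5 in wild-type cells. The Pac1-/- replicate 2 array stood alone above the other 3, which lay between 213.9 and 253.3. The log2 difference was 0.32 ± 0.52 (SE over 2 arrays a genotype; limma adjusted p = 0.923), with -0.24 within replicate 1 and 0.89 within replicate 2. Without Pac1-/- replicate 2 it was -0.21.

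Among the calcineurin genes, the catalytic subunit gene Ppp3ca had 3 tested probe sets. The brightest, 1452056_s_at, read 433.2 and 510.5 in Pac1-/- cells, against 303.2 and 272.9 in wild-type cells. Both Pac1-/- arrays were above both wild-type arrays, and the log2 difference was 0.71 ± 0.36 (SE over 2 arrays a genotype; 95% interval -0.31 to 1.73, limma adjusted p = 0.866). It kept its sign with any 1 array left out, between 0.59 and 0.83. The second, 1426401_at, read 264.2 and 509.9 in Pac1-/- cells, against 295.4 and 412.2 in wild-type cells, with the replicate 2 array higher in both genotypes and a log2 difference of 0.07 ± 0.52. The third, 1438478_a_at, read 422.8 and 182.1 in Pac1-/- cells, against 424.4 and 361.1 in wild-type cells, with Pac1-/- replicate 2 the low one and a log2 difference of -0.50 ± 0.57. The 3 probe sets thus gave a higher, a near-zero and a lower estimate, each with an interval that includes 0, and with their log2 values averaged the difference was 0.10.

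The other catalytic subunit gene, Ppp3cb, read 139.8 and 244.6 in Pac1-/- cells, against 203.7 and 109.6 in wild-type cells. The genotypes interleaved, with the lowest and the next to highest reading both in wild-type cells. The log2 difference was 0.31 ± 0.56 (SE over 2 arrays a genotype; limma adjusted p = 0.937), -0.54 within replicate 1 and 1.16 within replicate 2. It was -0.10 without Pac1-/- replicate 2 and -0.14 without wild-type replicate 2. A dim Ppp3cb probe set, not tested, read 38.5 and 25.9 in Pac1-/- cells, against 62.5 and 108.1 in wild-type cells.

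Ppp3r1, the gene of the calcium-binding regulatory subunit, was the steadiest of the 8 tested genes over the 4 arrays. It read 691.0 and 692.9 in Pac1-/- cells, against 567.4 and 815.5 in wild-type cells, so that both Pac1-/- arrays lay between the wild-type arrays. The range of its log2 intensity over the 4 arrays was 0.52, against a median range of 1.11 over the 8 genes. The log2 difference was 0.02 ± 0.39 (SE over 2 arrays a genotype; 95% interval -1.10 to 1.15, limma adjusted p = 0.995), and the interval reaches past 1 log2 unit in either direction. Without wild-type replicate 1 it was -0.24. A dim Ppp3r1 probe set, not tested, read 70.2 and 10.7 in Pac1-/- cells, against 39.2 and 33.4 in wild-type cells.

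**Figure D2:**
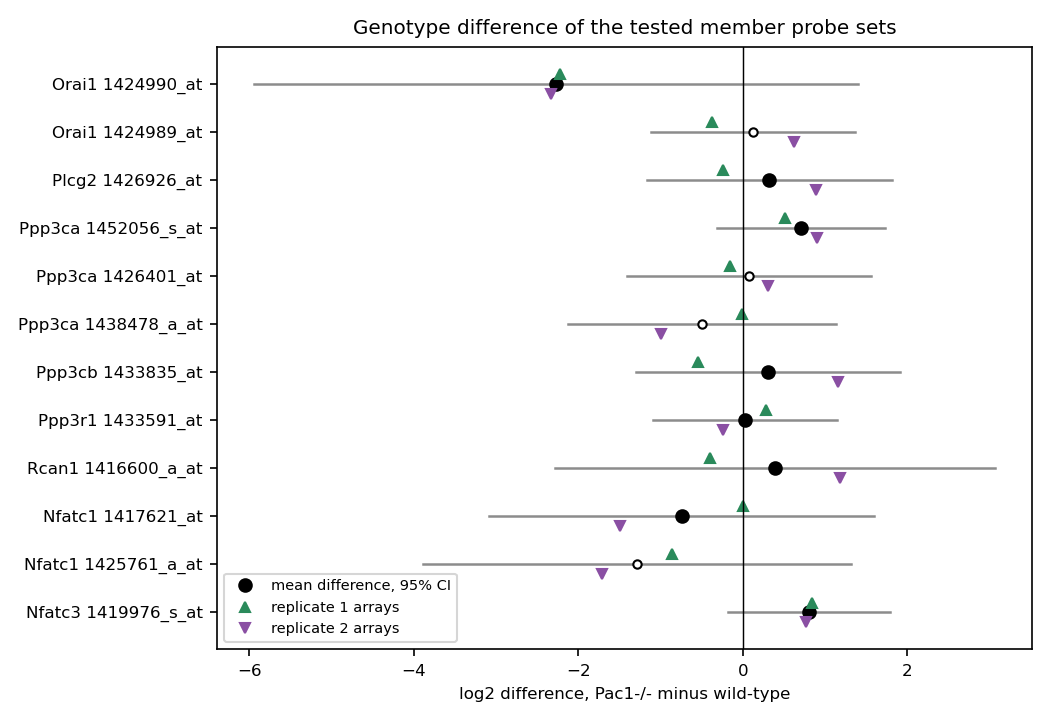
Log2 difference, Pac1-/- minus wild-type, of the 12 tested probe sets; circles are the mean difference (filled for the brightest probe set of a gene) with its 95% confidence interval from limma, triangles the difference within the replicate 1 arrays (green, pointing up) and within the replicate 2 arrays (purple, pointing down). Every interval crosses 0, and the triangles lie close together for Nfatc3 (0.84 and 0.77) and Orai1 1424990_at (-2.22 and -2.33) but on opposite sides of 0 for Rcan1 (-0.40 and 1.19).

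Rcan1 encodes the inhibitor of calcineurin and is itself a known target of NFAT, so both of its promoter windows are shown. RefSeq lists 2 start sites for it on chromosome 16 of mouse build GRCm38.p6, minus strand, 66091 bases apart, and the downstream promoter is the one known to be bound by NFAT. Each window holds 250 bases before and 50 bases from the start site. Capitals mark the NFAT core GGAAA and the AP-1 motif TGANTCA, searched on both strands; AP-1 is the partner that binds DNA beside NFAT.
Upstream, chr16:92466120-92466419: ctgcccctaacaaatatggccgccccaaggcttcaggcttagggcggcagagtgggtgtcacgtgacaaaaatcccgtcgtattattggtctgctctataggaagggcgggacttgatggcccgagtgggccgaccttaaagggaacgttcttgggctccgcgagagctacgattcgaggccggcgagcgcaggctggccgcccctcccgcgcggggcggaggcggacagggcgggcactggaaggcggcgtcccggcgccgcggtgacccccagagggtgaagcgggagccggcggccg
Downstream, chr16:92400029-92400328: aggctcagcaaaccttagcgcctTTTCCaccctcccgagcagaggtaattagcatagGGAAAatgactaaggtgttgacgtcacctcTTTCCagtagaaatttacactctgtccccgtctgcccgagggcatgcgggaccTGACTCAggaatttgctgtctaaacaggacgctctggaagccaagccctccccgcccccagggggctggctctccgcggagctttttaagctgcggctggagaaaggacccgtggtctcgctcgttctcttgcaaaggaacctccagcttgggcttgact
The downstream window holds 3 matches to GGAAA, starting at positions -227, -193 and -163 from the start site, and 1 match to TGANTCA at -110, none of which overlap. The upstream window holds no match to either. Of 32851 RefSeq promoter windows of this length, 61.3% hold at least 1 GGAAA, 9.42% hold 3 or more, 7.81% hold TGANTCA and 5.00% hold both. For the 10 genes the windows of 1 chromosome were passed over, though they were kept among the 32851. In all, 10 windows were read for 8 of the 10 genes. None was read for Ppp3ca or Nfatc1, and the chromosome passed over does not account for both. Of the 10 windows, 4 hold GGAAA (1 each of Plcg2, Ppp3cb, Rcan1 and Nfatc3) and 1, the downstream Rcan1 window, holds TGANTCA. A match describes the letters of a window and is not a measured site.

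**Figure D3:**
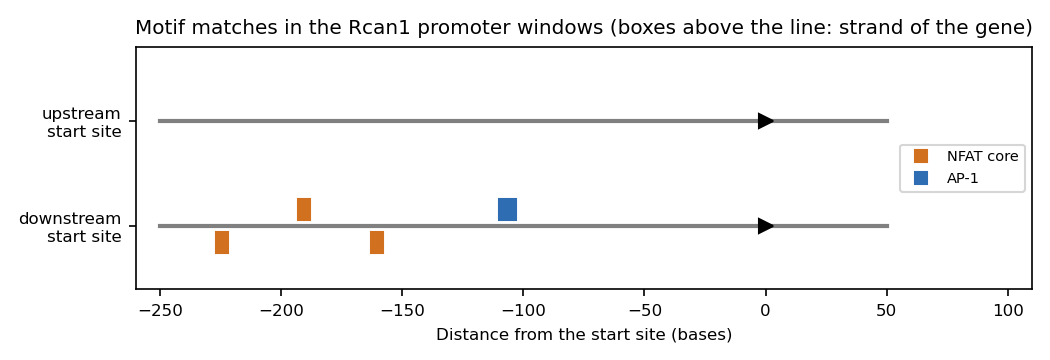
Positions of the motif matches in the 2 Rcan1 promoter windows, by distance from each start site in bases (arrowhead, start site); boxes above a line are on the strand of the gene and boxes below it on the other strand, orange for the NFAT core and blue for AP-1. The downstream window has 3 NFAT core matches and 1 AP-1 match, and the upstream window has none.

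The brighter Rcan1 probe set, 1416600_a_at, had normalised intensities of 260.1 and 162.7 in Pac1-/- cells, against 343.1 and 71.5 in wild-type cells. Both Pac1-/- arrays lay between the wild-type arrays, and the replicate 2 array was the lower one in both genotypes. The log2 difference was 0.39 ± 0.93 (SE over 2 arrays a genotype; 95% interval -2.28 to 3.07, limma adjusted p = 0.961), -0.40 within replicate 1 and 1.19 within replicate 2. Without wild-type replicate 2 it was -0.74, and without wild-type replicate 1 it was 1.53. Replicate 2 minus replicate 1 was -0.68 in Pac1-/- and -2.26 in wild-type cells on the log2 scale. Cd68 was also lower on the replicate 2 arrays, while the sum of the other macrophage markers was not. Whether Rcan1 is linked to either was not tested. The dimmer probe set, 1416601_a_at, read 33.4 and 1.9 in Pac1-/- cells, against 108.9 and 46.9 in wild-type cells, and averaged below 100. Both Pac1-/- readings were below both wild-type readings there, unlike on the brighter probe set. The labels and the annotation do not say which start site's transcripts either probe set reads.

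Nfatc1, an NFAT factor known to amplify its own transcription in lymphocytes and osteoclasts, was lower on average in Pac1-/- cells on both of its probe sets. The brighter, 1417621_at, read 1248.0 and 319.2 in Pac1-/- cells, against 1246.4 and 896.8 in wild-type cells. The replicate 1 arrays were level (0.002), and the whole difference came from the replicate 2 arrays (-1.49), where Pac1-/- replicate 2 stood lowest. The log2 difference was -0.74 ± 0.82 (SE over 2 arrays a genotype; 95% interval -3.09 to 1.60, limma adjusted p = 0.879), and without Pac1-/- replicate 2 it was 0.24. With each array centred on its median it was -0.09, on a scale where all tested probe sets had a median of 0.66. The second, 1425761_a_at, read 603.9 and 152.0 in Pac1-/- cells, against 1098.5 and 497.6 in wild-type cells, with a log2 difference of -1.29 ± 0.91 (adjusted p = 0.866). Here the Pac1-/- array was the lower one within each replicate number (-0.86 and -1.71), though the groups overlapped. Pac1-/- replicate 2 had the highest Gapdh 3' to 5' ratio (191), but its beta-actin ratio (54.8) was below those of the replicate 1 arrays (293 in Pac1-/- and 109 in wild-type cells). The part of RNA quality in this was not tested.

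Nfatc3, another NFAT factor, had replicates that lay close together in both genotypes. Probe set 1419976_s_at read 155.0 and 158.5 in Pac1-/- cells, against 86.4 and 93.2 in wild-type cells. Both Pac1-/- arrays were above both wild-type arrays, and both wild-type readings were below 100, so the probe set reached the mean of 100 only through the Pac1-/- arrays, and the size is approximate. The mean log2 intensity was 7.29 ± 0.02 (SD, n = 2) in Pac1-/- cells and 6.49 ± 0.08 (SD, n = 2) in wild-type cells. The log2 difference was 0.81 ± 0.34 (SE, 95% confidence interval -0.18 to 1.79, limma adjusted p = 0.866, unadjusted p = 0.0839), 0.84 within replicate 1 and 0.77 within replicate 2. It lay between 0.75 and 0.86 with any 1 array left out and was 0.58 on the values as deposited. A second probe set, 1452497_a_at, averaged below 100 and read 48.1 and 3.2 in Pac1-/- cells, against 43.2 and 46.7 in wild-type cells. It did not show the higher reading in Pac1-/- cells.

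How the spread of each gene split between genotype and replicate number is shown in the plot of sums of squares. Genotype took over 50% of the sum of squares in 2 of the 8 genes, Nfatc3 (99.0%) and Ppp3ca (92.7%), against 33.6% of all 4998 tested genes. Of these 2, Nfatc3 was tested only through its Pac1-/- arrays. Replicate number took over 50% in 4, Rcan1 (73.4%), Nfatc1 (57.3%), Orai1 (52.2%) and Ppp3r1 (50.6%), against 36.6% of all tested genes. For Ppp3cb the remainder took 88.2%, which means that the genotype difference ran in opposite directions in the 2 replicate numbers. The difference had the same sign in both replicate numbers in 3 of the 8 genes (Orai1, Ppp3ca and Nfatc3), against 59.8% of all tested genes.

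**Figure D4:**
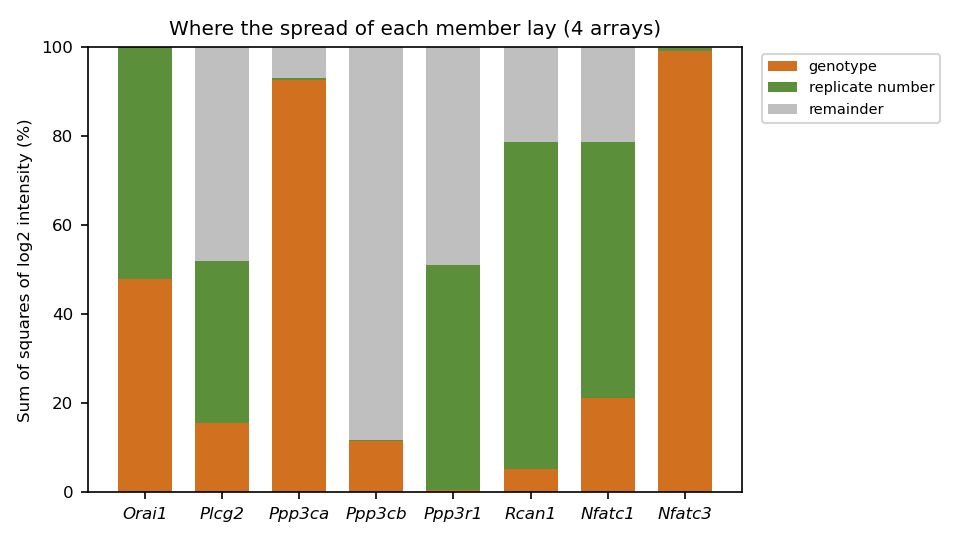
Share of the sum of squares of log2 intensity over the 4 arrays (percent) that lay between genotypes (orange), between replicate numbers (green) and in the remainder (grey), for the brightest probe set of each of the 8 tested genes. The genotype share is 99.0% for Nfatc3 and 92.7% for Ppp3ca, and the replicate share is 73.4% for Rcan1.

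The 3 tested genes with the widest range over the arrays were each set beside the 2 other tested genes whose centred log2 profile over the 4 arrays was closest by root mean square distance. With 4 arrays and 4990 genes to choose from, such closeness is a description only. Orai1 was closest to the immunoproteasome subunit gene Psmb8 (distance 0.19) and to Aamp (0.19). Rcan1 was closest to Tmeff2 (0.15) and the chemokine-like gene Cklf (0.15), and Nfatc1 to the galactosyltransferase gene B4galt1 (0.07) and the transmembrane tryptase gene Tpsg1 (0.11). Under a distance of 0.2 there were 3 genes for Orai1, 4 for Rcan1 and 21 for Nfatc1.

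The rest of the pathway was read from 7 lists, of which 55 genes were tested. Of these, 28 were higher and 27 lower in Pac1-/- cells, and the median log2 difference was 0.03. None passed limma's adjusted test and 1 (1.82%) passed at the unadjusted level, against 3.38% of all tested probe sets. This was the calcineurin B homologue gene Tesc. It read 738.9 and 623.4 in Pac1-/- cells, against 131.7 and 310.6 in wild-type cells, a log2 difference of 1.75 ± 0.58 (SE over 2 arrays a genotype; limma adjusted p = 0.866). Of 5 tested genes of the list of other calcineurin genes, 3 were higher and 2 lower (median 0.43). That list also holds genes that encode no calcineurin subunit or inhibitor, such as Akap1, Fkbp1a and Ppia. Rcan3, an Rcan1 relative, had a log2 difference of 0.52 ± 0.38. It read 122.2 and 113.2 in Pac1-/- cells, against 70.1 and 96.6 in wild-type cells, and was tested only through its Pac1-/- arrays.

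Upstream of calcineurin, 4 of 8 tested genes of calcium stores and pumps were higher and 4 lower (median -0.01). The Golgi calcium pump gene Atp2c1 (0.85 ± 0.47) and the store calcium-binding chaperone gene Calr (-0.52 ± 0.38) had the lowest p. Of the channels and exchangers, 2 of 7 were higher and 5 lower (median -0.21). The channel kinase gene Trpm7 read 207.4 and 193.5 in Pac1-/- cells, against 110.7 and 65.2 in wild-type cells (1.24 ± 0.44). Its wild-type readings averaged below 100, so Trpm7 was tested only through its Pac1-/- arrays. The ATP-gated channel gene P2rx1 differed by -1.04 ± 0.66. Of the partners of phospholipase C gamma, 3 of 9 were higher and 6 lower (median -0.31), with the adaptor genes Lat at -0.61 ± 0.38 and Lat2 at -2.34 ± 2.35. Lat2 read 29.5 and 138.2 in Pac1-/- cells, against 41.5 and 2523.0 in wild-type cells, so its difference rested on wild-type replicate 2. This probe set also reached the mean of 100 only through that array. Of 3 tested calmodulin and calmodulin kinase genes 2 were higher and 1 lower (median 0.13), with the kinase genes Camk2g at 0.73 ± 0.43 and Camk1 at -0.53 ± 1.01.

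Beside the NFAT factors, 10 of 13 tested genes of the list of other NFAT factors and NFAT kinases were higher and 3 lower (median 0.39), and 5 of the 13 (38.5%) did not overlap, all higher, against 37.7% of all tested probe sets in either direction and 24.3% higher. Among the 5 were Csnk1d and Dyrk1a, which encode kinases known to phosphorylate NFAT. The list also holds genes that encode neither an NFAT factor nor an NFAT kinase, such as Homer1, Xpo1 and Kpnb1. Csnk1d read 1916.6 and 2013.1 in Pac1-/- cells, against 1030.7 and 1342.4 in wild-type cells (0.74 ± 0.37). Dyrk1a read 136.6 and 204.1 in Pac1-/- cells, against 76.5 and 118.2 in wild-type cells (0.81 ± 0.46). Its wild-type readings averaged below 100, so Dyrk1a was tested only through its Pac1-/- arrays. Csnk1d and Dyrk1a each had a limma adjusted p of 0.866, so neither passed the test.

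Among genes that NFAT is known to act on, 4 of 10 tested were higher and 6 lower (median -0.05). The median was -0.74 within replicate 1 and 0.70 within replicate 2, and in 8 of the 10 genes replicate number took over 50% of the sum of squares. The G-protein signalling regulator gene Rgs2 read 790.5 and 453.2 in Pac1-/- cells, against 310.2 and 181.2 in wild-type cells, with 1.35 within replicate 1 and 1.32 within replicate 2 (1.34 ± 0.53, limma adjusted p = 0.866). The chemokine gene Ccl1 read 1047.5 and 523.0 in Pac1-/- cells, against 697.3 and 322.4 in wild-type cells (0.64 ± 0.65), lower on the replicate 2 array in both genotypes.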

How the data were processed

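Per the submitters' processing notes, the authors made the deposited table with MAS5, 1 linear intensity value per probe set and array. Leaving out 2% at either end, the mean was between 150.06 and 150.08 on each array, so the intensity values had been scaled alike. The design text of the series also describes RMA values, which were not used here, limma and a filter at an intensity of 100.

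After 64 controls were removed, 22626 probe sets remained, of which 20380 have 1 gene symbol, 691 several and 1555 none (platform annotation of the array). Values were quantile normalised on the linear scale, set to at least 16 and taken to log2. The 7770 probe sets with a mean normalised intensity of at least 100 were tested with limma 3.58.1 (lmFit and eBayes, genotype only, two-sided, R 4.3.3) and called at a Benjamini-Hochberg adjusted p under 0.05; residual degrees of freedom were 2 and prior ones 1.71. Permuting 2 against 2 arrays exactly gives no p below 0.3333. A gene was read by its brightest probe set. Every member and probe set was named; of each pathway list the tested genes with the lowest p (up to 2), and for the 3 members of widest range the 2 closest genes. The markers Cd68, Adgre1, Lyz2, Csf1r, Marco, C1qa, Ms4a2, Tpsb2, Itga2b, Sparc and Vcam1 were named after their values were seen. The fit was tested on simulated data. The members and lists were chosen with earlier results of these data known. Alternatives covered normalisation, minimum, floor, replicate block, probe set averaging, order of filter and adjustment, and leaving out each array. Motifs were searched in RefSeq promoter windows. Figures used matplotlib 3.10.9 under Python 3.11.15.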

Additional observations from a re-analysis of the deposited data

How the results depend on the processing

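No probe set passed limma's adjusted test under any alternative run, and the 8 tested genes stayed at 4 to 6 higher in Pac1-/- cells (7 of 10 with no intensity minimum, 4 of 5 with a minimum of 200). The count at an unadjusted p under 0.05, 263, was 1762 with no intensity minimum, 110 with a minimum of 200, 79 without wild-type replicate 2, 86 without Pac1-/- replicate 2 and 408 without Pac1-/- replicate 1; the intensity minimum changes how many are tested. The share of such probe sets that were higher in Pac1-/- cells was 66.5% of the 263, 54.2% of 203 on the values as deposited, 91.4% of 314 with median centring, 11.8% or 40.7% without Pac1-/- replicate 1 or 2, and 53.0% or 38.0% when replicate 1 or 2 of the wild type was left out, so its direction depended on the setting. The members' median of 0.32 was 0.87 with median centring, where that of all tested probe sets moved to 0.66, 0.21 with no intensity minimum, 0.20 with the probe sets of a gene averaged, and between 0.073 and 0.56 with 1 array left out. With 1 array left out, 5 of the 8 genes turned sign: Plcg2 ranged from -0.21 to 0.85, Ppp3cb from -0.14 to 0.75, Ppp3r1 from -0.24 to 0.29, Rcan1 from -0.74 to 1.53 and Nfatc1 from -1.73 to 0.24. A lone array of a genotype is assumed there to vary like the other genotype, and part of the replicate difference enters. None turned sign under the 7 other alternatives, except that Orai1, Ppp3cb and Nfatc3 were not tested with a minimum of 200. A changed intensity minimum and the replicate block leave the difference of a tested gene as it was, so no sign could turn there. The floor of 64 changed only Orai1, and averaging changed only genes with more than 1 tested probe set.

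Arrays with the same replicate number deviated together (r = 0.751 over tested probe sets), but the labels do not say that the number marks a shared batch. With the replicate number as a block, 899 probe sets had an unadjusted p under 0.05, 36.5% of them higher, and 0 passed the adjusted test; no member was called.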

Other observations

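Of the 8 tested genes, 4 had a further probe set too dim to test: Ppp3cb, Ppp3r1, Rcan1 and Nfatc3. In all 4 the dim probe set had a lower mean in Pac1-/- cells while the brightest had a higher one, and in all 4 Pac1-/- replicate 2 was the lowest array of the dim probe set. Over all 2416 such dim probe sets of tested genes, 48.6% had the opposite sign to the brightest one of their gene, 53.3% were lower in Pac1-/- cells and 31.0% had Pac1-/- replicate 2 lowest. The 4 were noticed after their values were seen, and the cause was not tested.

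A probe set that names both Ppp3r1 and Wdr92 was left out of the 19. It read 121.2 and 6.7 in Pac1-/- cells, against 161.3 and 30.0 in wild-type cells, lower on the replicate 2 array in both genotypes.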
